A study of Mus musculus with 8 samples.

Results

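The collagen genes were all mouse genes whose symbol is Col, a number, a and a number (Col1a1 to Col28a1), with symbols taken through the RefSeq accession of each array probe. There are 44 such genes, and the array carries 32301 gene names in all. Of the 44, 11 encode fibrillar collagens, 6 the chains of the type IV basement membrane collagen and 27 other collagens. A probe was matched to 42 of them, and 34 were measured well enough to be tested. Messenger RNA had been hybridised to 8 single-colour arrays from the kidneys of male mice aged 16 weeks, 2 arrays in each of 4 groups. The groups were wild type (WT) and Keap1 knockdown (KD), each either without injury (normal) or taken on day 1 following ischemia and reperfusion (IRI). In the IRI groups renal artery and vein had been clamped on the left for 45 min while the right kidney was left alone, and in the normal groups a left kidney without IRI was taken. The strain, the cells in which Keap1 is knocked down and the way this was achieved are not given in the sources used here. Whether arrays came from separate animals is also not given, so p-values measure only the spread between these samples.

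Collagens are secreted proteins of several chains wound into a triple helix. Fibrillar collagens, chiefly types I, III and V, form the cross-striated fibrils of interstitial connective tissue, and fibroblasts and pericytes are their main source in kidney. Type IV collagen forms the sheet-like network of basement membranes. The chains encoded by Col4a1 and Col4a2 occur in nearly all basement membranes, whereas those encoded by Col4a3, Col4a4 and Col4a5 form the mature network of the glomerular filter and some tubules and are the chains altered in Alport syndrome. The other collagens sit on fibrils, link basement membranes to the tissue around them, or span the cell membrane. KEAP1 holds the transcription factor NRF2 at a low level, and less KEAP1 leaves more NRF2 active.

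Levels below are log2 signals relative to the 75th percentile of each array, so a level of 0 is the signal at that percentile. A difference is a difference of such levels between groups, with limma's standard error (SE) and n = 2 arrays per group. A gene was called higher or lower when limma's p, adjusted by Benjamini-Hochberg over all 20581 genes tested, was at most 0.05. Between 62.1% and 67.8% of spots were well above background per array, and no spot other than controls was saturated. The number of arrays limits the precision. Keap1, the knocked-down gene, read 2.78 and 2.70 (WT normal), 1.53 and 1.44 (KD normal), 2.71 and 2.55 (WT IRI) and 1.38 and 1.09 (KD IRI). The KD arrays lay below all WT arrays, with a KD minus WT difference of -1.26 ± 0.11 (SE) in normal kidney (adjusted p = 0.0039) and -1.39 ± 0.11 after IRI (adjusted p = 0.00498). Markers of kidney cells were all measured, 7 of 7 for proximal tubule, 5 of 5 for loop and distal tubule and 7 of 7 for podocytes.

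All fibrillar and all type IV genes were above background, and the genes that were not came from the other collagens. All 11 fibrillar and all 6 type IV genes were well above background on all 8 arrays, as were 14 of the 27 others. This status is that of the probe used for each gene, and other probes could be dimmer. The other Col11a1 probe was not well above background on any array, and the other Col11a2 probe was so on 3 arrays. Col25a1, Col28a1, Col6a6, Col9a1 and Col9a3 were not well above background on any array. Col10a1, Col6a5 and Col8a2 passed on 1 array each, and these 8 genes were not tested. Among tested genes, Col17a1 was well above background on the 4 IRI arrays only, Col22a1 on the 4 normal arrays only and Col19a1 on 6 arrays. These 3 genes entered the test through the groups in which they were high, and the class medians below leave them out. No probe was matched to Col12a1 or Col6a3.

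Setting WT IRI against WT normal asks how collagen mRNA differed at day 1 after injury in kidneys with normal Keap1, and setting KD IRI against KD normal asks the same at low Keap1. Collagen genes moved in both directions. In WT, 17 of the 34 tested genes were higher after injury and 9 were lower (21.3% and 24.4% of all genes tested), and 8 did not pass. With normexp background correction the WT split was 16 higher and 5 lower. In KD, 17 were higher and 8 lower (28.3% and 30.9% of all genes tested), and 9 did not pass. With normexp correction, 27 of the 34 KD results stayed the same, 5 lost their call, 1 gained a call and 1 reversed in sign. Of the 31 genes above background on every array, 16 were higher and 7 lower in WT (20.7% and 26.6% of the 17680 such genes) and 16 higher and 6 lower in KD (27.6% and 32.7%). By class, 7 of 11 fibrillar genes rose in WT and 7 in KD. Of the 6 type IV genes 2 rose in WT and 3 in KD, and of the 17 others 8 rose in WT and 7 in KD. Falls numbered 1 and 2 among fibrillar, 2 and 2 among type IV and 6 and 4 among other genes, in WT and KD in that order. The counts of the 17 others include Col17a1, Col19a1 and Col22a1. Among the 14 others above background on every array, 7 rose and 4 fell in WT, and 6 rose and 2 fell in KD. A change of at least 2-fold was called for 19 genes in WT (16.8% of all genes) and 21 in KD (26.5% of all genes).

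**Figure D1:**
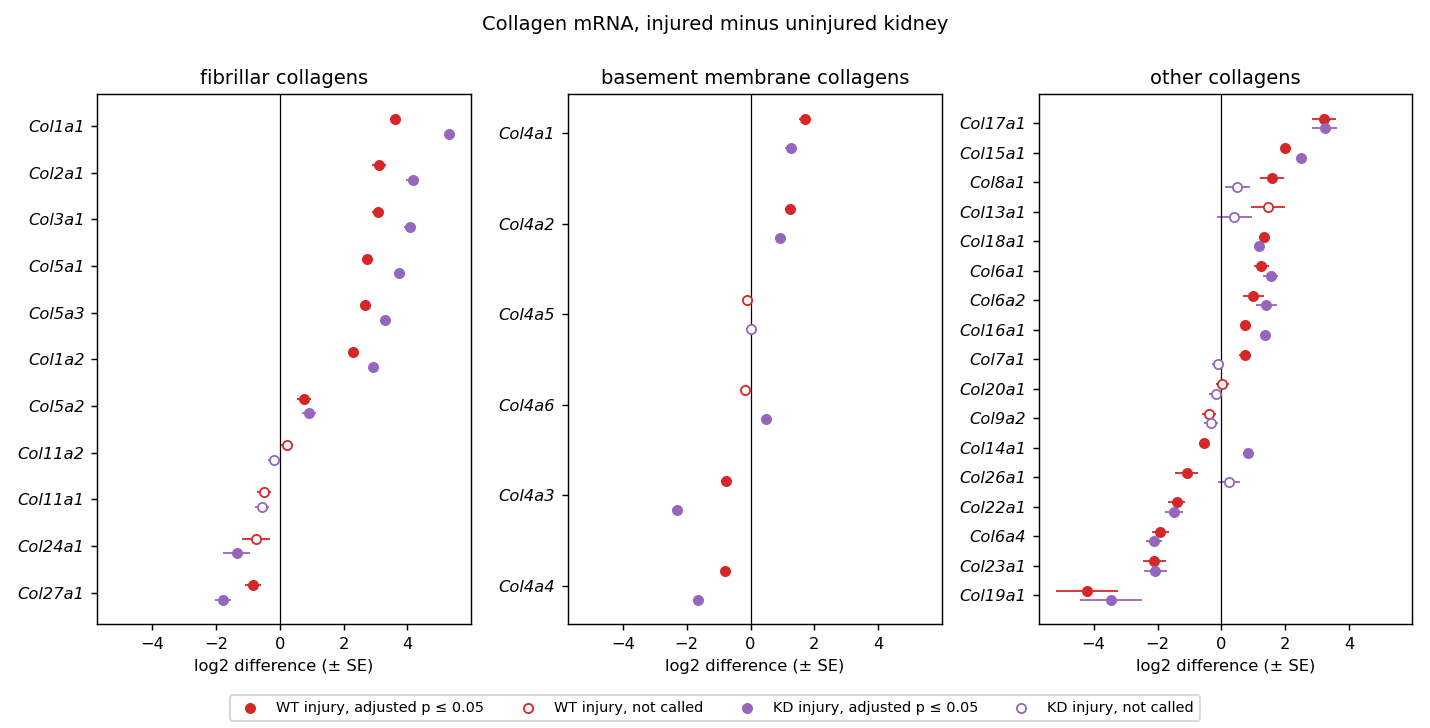
Difference between injured and uninjured kidney for each tested collagen gene (x axis, log2 difference with its SE), by class and gene (y axis), with WT in red and KD in purple; filled points passed an adjusted p of 0.05. The points to the right of 0 are led by Col1a1 at 3.61 in WT and 5.31 in KD, and Col23a1 lies to the left at -2.11 and -2.07. Points of Col17a1, Col19a1 and Col22a1 include values not well above background.

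Among fibrillar collagens 7 of 11 genes rose in each genotype, and the median difference over their 11 genes was 2.30 in WT and 2.92 in KD. This count and these medians include Col2a1, whose probes disagreed, as given below. The medians over all 17680 genes above background on every array were -0.085 and -0.079. Col1a1, a chain of type I collagen, read 0.59 and 0.50 (WT normal), -0.054 and -0.39 (KD normal), 4.12 and 4.19 (WT IRI) and 4.92 and 5.26 (KD IRI). The 4 injured arrays all lay above the 4 uninjured ones. The difference was 3.61 ± 0.15 in WT, or 12.2-fold (adjusted p = 3.18e-05), and 5.31 ± 0.15 in KD, or 39.7-fold (adjusted p = 5.55e-06). Its partner chain Col1a2 read 3.07 and 3.07 (WT normal), 3.0 and 2.91 (KD normal), 5.32 and 5.43 (WT IRI) and 5.79 and 5.96 (KD IRI). Injured and uninjured arrays did not overlap, and Col1a2 rose by 2.30 ± 0.084 in WT (adjusted p = 2.20e-05) and 2.92 ± 0.084 in KD (adjusted p = 5.55e-06). Col3a1, the chain of type III collagen, which forms fine fibrils with type I, read 0.75 and 0.77 (WT normal), 0.29 and 0.46 (KD normal), 3.62 and 4.06 (WT IRI) and 4.25 and 4.65 (KD IRI). It rose by 3.08 ± 0.18 in WT and 4.07 ± 0.18 in KD, again with no overlap. The 2 dimmer probes of Col1a1 and the dimmer probe of Col3a1 read higher on every injured than on every uninjured array as well.

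Type V collagen co-assembles with type I and limits fibril width, and all 3 of its chains rose. Col5a1 read -1.35 and -1.34 (WT normal), -1.67 and -1.67 (KD normal), 1.33 and 1.43 (WT IRI) and 1.85 and 2.30 (KD IRI). Col5a3 read -1.71 and -1.55 (WT normal), -2.47 and -2.33 (KD normal), 0.95 and 1.11 (WT IRI) and 0.75 and 1.05 (KD IRI). In both genes every injured array was above every uninjured array. The differences were 2.73 ± 0.14 in WT and 3.75 ± 0.14 in KD for Col5a1, and 2.66 ± 0.13 and 3.30 ± 0.13 for Col5a3. A dimmer probe of Col5a1 gave smaller rises of 0.87 in WT (adjusted p = 0.00404, over all probes) and 1.25 in KD (adjusted p = 0.00047). Col5a2 rose less, by 0.75 ± 0.22 in WT (adjusted p = 0.0308) and 0.92 ± 0.22 in KD (adjusted p = 0.0105), and its neighbour on chromosome 1 is Col3a1, with no listed gene between them.

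The probes of Col2a1, the chain of type II collagen of cartilage, disagreed. The probe used, which has 10 spots per array, read -3.20 and -3.17 (WT normal), -3.80 and -3.50 (KD normal), -0.32 and 0.17 (WT IRI) and 0.30 and 0.73 (KD IRI), with no overlap between injured and uninjured arrays. Its rise was 3.11 ± 0.21 in WT and 4.16 ± 0.21 in KD. The other Col2a1 probe ran the opposite way, at 2.05 and 3.87 (WT normal), 0.63 and -1.63 (KD normal), -1.83 and -1.52 (WT IRI) and -2.67 and -2.59 (KD IRI), and was marked as an outlier spot on 4 arrays, so it was not tested. Of the cartilage markers, Acan, which encodes the proteoglycan aggrecan, differed by -0.16 in WT (adjusted p = 0.596) and 0.045 in KD (adjusted p = 0.879), Matn1 was not well above background on any array, and Comp, well above background on 1 of 2 injured arrays in each genotype, fell in both.

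The fibrillar genes called lower were Col27a1 and, in KD only, Col24a1. Col27a1, a fibrillar collagen of developing cartilage, read 0.73 and 0.75 (WT normal), 0.22 and 0.39 (KD normal), -0.52 and 0.33 (WT IRI) and -1.51 and -1.46 (KD IRI). It fell by 0.83 ± 0.25 on the log2 scale in WT (adjusted p = 0.0304) and fell by 1.79 ± 0.25 in KD (adjusted p = 0.000818), and the KD IRI arrays lay below all others. Col24a1, a minor fibrillar collagen of bone, read -2.91 and -4.22 (WT normal), -3.62 and -3.56 (KD normal), -4.00 and -4.60 (WT IRI) and -4.73 and -5.16 (KD IRI). In WT the groups overlapped and its difference of -0.74 ± 0.43 did not pass (adjusted p = 0.202), whereas in KD it fell by 1.35 ± 0.43 (adjusted p = 0.0305). The dimmer Col24a1 probe was called in the opposite direction in WT (1.18, adjusted p = 0.02). Col11a1 and Col11a2, chains of the minor cartilage collagen type XI, ranged from -5.49 to -4.58 and from -4.53 to -3.73 over the 8 arrays and passed in neither genotype.

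**Figure D2:**
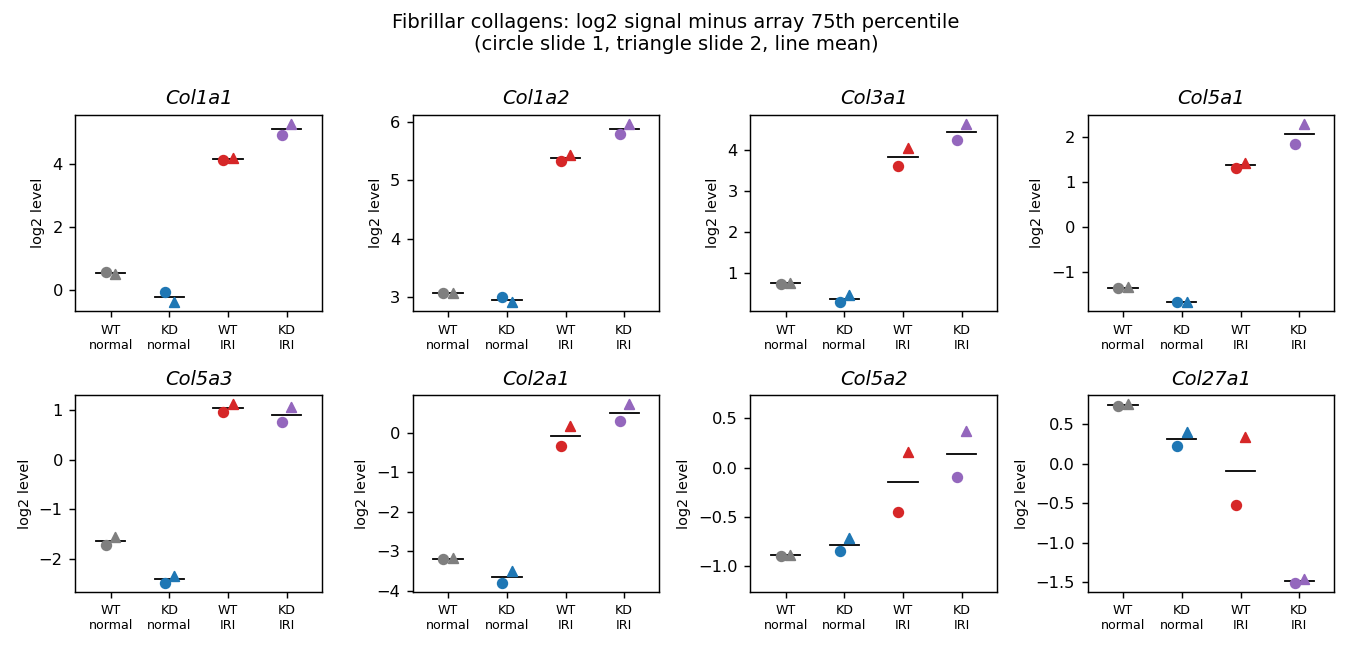
Level of 8 fibrillar collagen genes on each array (y axis, log2 signal minus the array's 75th percentile) in the 4 groups (x axis), with a circle for slide 1, a triangle for slide 2 and a line for the group mean. Col1a1 lies between -0.39 and 0.59 on uninjured and between 4.12 and 5.26 on injured arrays, whereas Col27a1 is lowest in KD IRI.

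The sequence before the transcription start is shown for 4 fibrillar genes that rose together, since promoter elements can lie there. Windows came from RefSeq on GRCm38.p6, and 35 of the 44 genes matched a window (38 windows in all). The stretches printed are the 150 bases nearest the start that lie outside any listed gene, 5′ to 3′. Those of Col1a2 and Col3a1 reach the start, whereas those of Col5a1 and Col5a3 end 44 and 50 bases before it. The stretches lie as follows. They are chr6:4505468-4505617 on the forward strand for Col1a2, chr1:45311388-45311537 on the forward strand for Col3a1, chr2:27886231-27886380 on the forward strand for Col5a1 and chr9:20815118-20815267 on the reverse strand for Col5a3. Capitals mark the letters of the CCAAT box (CCAAT), the TATA box (TATAAA) and the GC box (GGGCGG). They were searched on both strands, whatever their distance from the start.
Col1a2: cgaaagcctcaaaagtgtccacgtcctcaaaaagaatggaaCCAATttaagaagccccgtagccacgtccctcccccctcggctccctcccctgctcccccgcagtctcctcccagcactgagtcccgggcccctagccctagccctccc
Col3a1: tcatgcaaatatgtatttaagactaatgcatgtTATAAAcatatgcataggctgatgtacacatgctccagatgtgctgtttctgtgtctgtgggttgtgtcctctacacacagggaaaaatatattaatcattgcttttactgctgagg
Col5a1: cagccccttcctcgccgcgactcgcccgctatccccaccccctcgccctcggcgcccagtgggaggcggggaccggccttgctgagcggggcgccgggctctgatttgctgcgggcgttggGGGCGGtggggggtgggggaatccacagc
Col5a3: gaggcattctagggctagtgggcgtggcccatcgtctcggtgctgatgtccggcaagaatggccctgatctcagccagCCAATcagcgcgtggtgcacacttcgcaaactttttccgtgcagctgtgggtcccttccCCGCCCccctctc
No motif was in all 4 stretches: Col1a2 held CCAAT, Col3a1 TATAAA, Col5a1 GGGCGG and Col5a3 CCAAT, with GGGCGG on the other strand. These are matches of letters, and whether they act as promoter elements was not tested. Within the 250 bases before the start, the Col1a2 window held GGGCGG too, as did those of Col5a1 and Col5a3. Over the whole 250 bases before the start, CCAAT was present in 13 of 38 collagen windows (34.2%) against 33.8% of all 32851 windows. TATAAA was in 5 (13.2%, against 12.4%) and GGGCGG in 22 (57.9%, against 32.7%). These shares describe the letters in the windows and were not tested.

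The 6 type IV chains did not move as a class after injury. Col4a1 read 1.90 and 2.00 (WT normal), 2.37 and 2.61 (KD normal), 3.38 and 3.92 (WT IRI) and 3.61 and 3.90 (KD IRI). Col4a2 read 2.21 and 2.25 (WT normal), 2.57 and 2.66 (KD normal), 3.27 and 3.64 (WT IRI) and 3.42 and 3.64 (KD IRI). All injured arrays were above all uninjured ones for both genes, which are neighbours on chromosome 8. Col4a1 rose by 1.70 ± 0.19 in WT (adjusted p = 0.000656) and 1.27 ± 0.19 in KD (adjusted p = 0.00118). Col4a2 rose by 1.23 ± 0.13 in WT (adjusted p = 0.000614) and 0.91 ± 0.13 in KD (adjusted p = 0.00111). A dimmer probe of each gene also read higher on every injured than on every uninjured array.

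Col4a3 and Col4a4, the chains of the mature glomerular network, fell. Col4a3 read 0.56 and 0.75 (WT normal), 1.03 and 1.52 (KD normal), -0.087 and -0.15 (WT IRI) and -1.05 and -0.98 (KD IRI). Col4a4 read 2.83 and 2.84 (WT normal), 2.89 and 3.29 (KD normal), 2.03 and 2.06 (WT IRI) and 1.49 and 1.40 (KD IRI). For both genes the KD normal arrays were the highest and the KD IRI arrays the lowest, with no overlap between injured and uninjured arrays. Col4a3 fell by 0.77 ± 0.16 on the log2 scale in WT (adjusted p = 0.00795) and fell by 2.29 ± 0.16 in KD (adjusted p = 5.19e-05), and its dimmer probe gave falls of 0.82 and 2.31. Col4a4, its neighbour on chromosome 1, fell by 0.79 ± 0.13 in WT (adjusted p = 0.00285) and fell by 1.65 ± 0.13 in KD (adjusted p = 7.31e-05). In whole tissue, fewer cells of a type and less RNA per cell cannot be told apart. Among 7 podocyte markers 6 did not pass in WT and Synpo fell by 4.56. In KD, Synpo fell by 2.68 and Nphs1 by 0.53, Ptpro rose by 0.36 and 4 did not pass. Their summed linear signal without Synpo was 5.37 to 5.50 times the array's 75th percentile in WT normal, 5.75 to 6.46 in KD normal, 5.97 to 6.41 in WT IRI and 5.49 to 6.42 in KD IRI. With Synpo it was 93.1 to 190.8, 19.4 to 35.0, 10.8 to 12.4 and 8.47 to 9.48. All 7 proximal tubule and all 5 loop and distal tubule markers fell in both genotypes, against 24.4% of all genes tested in WT and 30.9% in KD. Pvalb, of the loop and distal tubule list, was not well above background on any injured array. It entered the test through the normal groups, in which it was high. The part of cell makeup in the fall of Col4a3 and Col4a4 was not tested.

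Col4a5 and Col4a6, neighbours on the X chromosome, showed the smallest differences among the type IV genes. Col4a5, the third chain of the glomerular network, read -2.54 and -2.09 (WT normal), -2.21 and -2.33 (KD normal), -2.46 and -2.36 (WT IRI) and -2.15 and -2.33 (KD IRI). Injured and uninjured arrays overlapped, and its differences of -0.10 ± 0.17 in WT (adjusted p = 0.672) and 0.028 ± 0.17 in KD (adjusted p = 0.899) did not pass. Col4a6, which joins Col4a5 in Bowman's capsule, read -1.67 and -1.46 (WT normal), -1.77 and -1.97 (KD normal), -1.72 and -1.73 (WT IRI) and -1.35 and -1.40 (KD IRI). It did not pass in WT (-0.16 ± 0.12, adjusted p = 0.305) and rose by 0.49 ± 0.12 in KD (adjusted p = 0.0104). Another Col4a6 probe, left out because its spot was marked as an outlier on WT normal 2, read lower on the injured arrays (-2.89 to -2.33) than on the 3 uninjured arrays without a mark (-2.06 to -1.53). The median over the 6 type IV genes was -0.13 in WT and 0.26 in KD, and with normexp background correction it was 0.22 and -0.13, so no direction is given for the class.

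**Figure D3:**
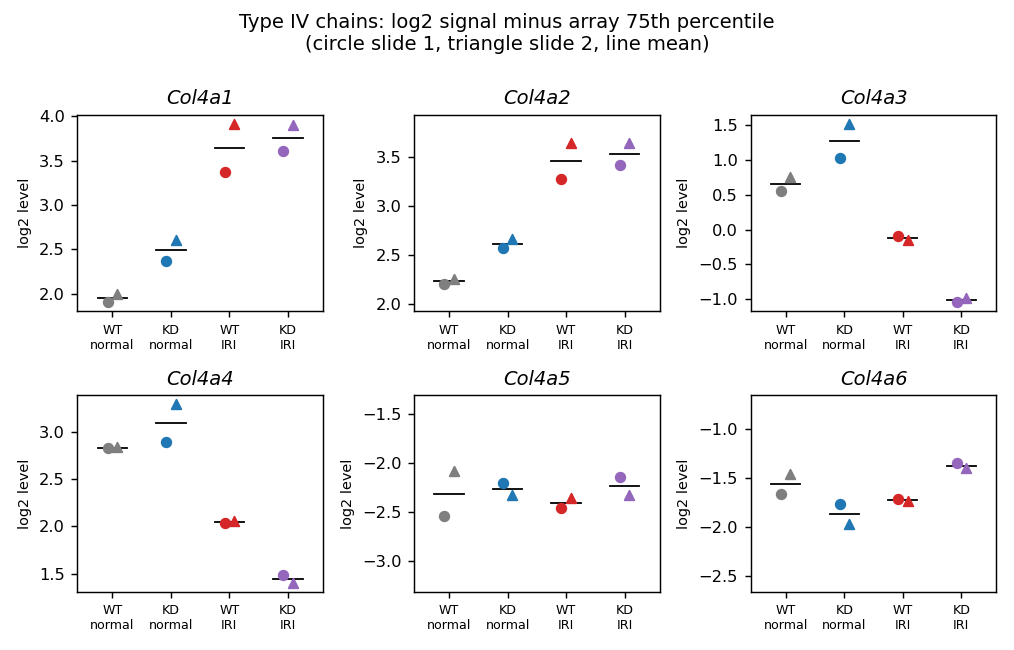
Level of the 6 type IV collagen genes on each array (y axis, log2 signal minus the array's 75th percentile) in the 4 groups (x axis), with a circle for slide 1, a triangle for slide 2 and a line for the group mean. Col4a1 and Col4a2 are higher in both injured groups, Col4a3 and Col4a4 are lower and lowest in KD IRI (Col4a3 at -1.05 and -0.98), and Col4a5 stays between -2.54 and -2.09.

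Among the other collagens, Col15a1, Col18a1, Col16a1, Col6a1 and Col6a2 rose after injury in both genotypes. Col15a1 and Col18a1 encode the multiplexins, which lie at the basement membrane, and Col18a1 is the source of endostatin. Col15a1 read -1.35 and -1.22 (WT normal), -1.84 and -1.88 (KD normal), 0.73 and 0.67 (WT IRI) and 0.47 and 0.83 (KD IRI). Col18a1 read 4.41 and 4.52 (WT normal), 4.55 and 4.80 (KD normal), 5.71 and 5.90 (WT IRI) and 5.83 and 5.89 (KD IRI). Injured and uninjured arrays did not overlap for either gene. The rises were 1.98 ± 0.13 in WT and 2.51 ± 0.13 in KD for Col15a1, and 1.34 ± 0.11 and 1.18 ± 0.11 for Col18a1, with adjusted p between 2.26e-05 and 0.000214.

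Type VI collagen forms beaded filaments around cells. Its chain Col6a1 read -1.33 and -1.20 (WT normal), -1.66 and -1.35 (KD normal), -0.37 and 0.33 (WT IRI) and -0.12 and 0.20 (KD IRI). Col6a2 read -3.02 and -2.45 (WT normal), -3.37 and -2.83 (KD normal), -2.12 and -1.33 (WT IRI) and -1.84 and -1.54 (KD IRI). Both genes were higher on every injured than on every uninjured array, and they lie close together on chromosome 10. Col6a1 rose by 1.25 ± 0.24 in WT and 1.55 ± 0.24 in KD, and Col6a2 by 1.01 ± 0.33 (adjusted p = 0.0409) and 1.41 ± 0.33 (adjusted p = 0.00841). The alternative chain Col6a4 went the other way and read -1.51 and -1.95 (WT normal), -1.68 and -2.0 (KD normal), -3.35 and -3.93 (WT IRI) and -3.76 and -4.13 (KD IRI). It fell by 1.91 ± 0.26 in WT (adjusted p = 0.00137) and fell by 2.11 ± 0.26 in KD (adjusted p = 0.000491) on the log2 scale, but its dimmer probe did not pass (-0.20 in WT, adjusted p = 0.504, and -0.43 in KD, adjusted p = 0.138).

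Collagens that sit on fibrils differed among themselves. Col16a1 read 1.48 and 1.49 (WT normal), 1.15 and 1.36 (KD normal), 2.41 and 2.05 (WT IRI) and 2.56 and 2.69 (KD IRI), above the uninjured arrays in all 4 injured ones. It rose by 0.74 ± 0.14 in WT (adjusted p = 0.00458) and 1.37 ± 0.14 in KD (adjusted p = 0.000188). Col14a1, which binds the surface of type I fibrils, read 0.85 and 0.86 (WT normal), 0.49 and 0.29 (KD normal), 0.44 and 0.15 (WT IRI) and 1.04 and 1.42 (KD IRI). It fell by 0.56 ± 0.16 on the log2 scale in WT (adjusted p = 0.0243) and rose by 0.84 ± 0.16 in KD (adjusted p = 0.00315), and the KD IRI arrays were its highest. Col19a1 read -2.13 and -2.24 (WT normal), -2.13 and -2.53 (KD normal), -4.82 and -7.98 (WT IRI) and -6.58 and -4.99 (KD IRI), and it was not well above background on WT IRI 2 and KD IRI 1. It fell by 4.22 ± 0.97 in WT (adjusted p = 0.0117) and fell by 3.45 ± 0.97 in KD (adjusted p = 0.0191), sizes that rest on those dim values. Its other tested probe, well above background on 2 arrays only, gave -1.71 in WT and -3.41 in KD. Col22a1 read -4.52 and -4.12 (WT normal), -4.85 and -4.59 (KD normal), -5.67 and -5.78 (WT IRI) and -6.44 and -5.98 (KD IRI) and was not well above background in either injured group, where its level is a bound. It was at least 2.64-fold lower in WT (adjusted p = 0.00606) and at least 2.07-fold lower in KD (adjusted p = 0.00308). With normexp correction the WT difference of Col22a1 was 0.47 and did not pass. Col9a2 and Col20a1 passed in neither genotype, with differences between -0.38 and 0.035.

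The membrane-spanning collagens also went both ways. Col17a1, a collagen of hemidesmosomes, read -7.01 and -7.01 (WT normal), -7.23 and -6.54 (KD normal), -4.20 and -3.39 (WT IRI) and -3.89 and -3.41 (KD IRI) and was not well above background on any uninjured array. It was at least 2.4-fold higher after injury in WT (adjusted p = 0.000786) and at least 3.51-fold higher in KD (adjusted p = 0.000384). These p-values, and those of Col22a1, come from the fit of the measured values, dim ones included. With normexp correction the KD difference of Col17a1 was -0.078 (adjusted p = 0.96). Another Col17a1 probe was not well above background on any array, injured ones included, and was not tested. Col23a1 read -2.88 and -2.90 (WT normal), -3.02 and -3.22 (KD normal), -4.40 and -5.60 (WT IRI) and -5.25 and -5.14 (KD IRI), with no overlap, and fell by 2.11 ± 0.36 in WT and fell by 2.07 ± 0.36 in KD on the log2 scale. Col13a1 ranged from -1.99 to 0.47, with its highest value on WT IRI 2, and did not pass (1.46 ± 0.54 in WT, adjusted p = 0.062, or 0.0342 with the slide as a block).

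Col8a1, the short-chain collagen of vessel walls, read 1.70 and 1.77 (WT normal), 1.35 and 2.5 (KD normal), 2.98 and 3.67 (WT IRI) and 2.20 and 2.66 (KD IRI). In WT the injured arrays were above the uninjured ones and it rose by 1.59 ± 0.39 (adjusted p = 0.0144), whereas in KD the groups overlapped and 0.50 ± 0.39 did not pass (adjusted p = 0.294). Col7a1, of the anchoring fibrils, rose by 0.74 ± 0.20 in WT (adjusted p = 0.0213) and was at -0.11 ± 0.20 in KD (adjusted p = 0.66). Col26a1, a collagen of none of these classes, read -0.36 and -0.36 (WT normal), -2.73 and -1.60 (KD normal), -1.18 and -1.72 (WT IRI) and -1.86 and -1.99 (KD IRI). It fell by 1.09 ± 0.35 on the log2 scale in WT (adjusted p = 0.0393, or 0.0524 with the slide as a block), and 0.24 ± 0.35 in KD did not pass (adjusted p = 0.574). The median over the 14 other collagens above background on every array was 0.74 in WT and 0.46 in KD.

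In WT, 17 of the 26 calls held whichever of the 8 arrays was left out, and in KD 20 of 25. The 9 that did not in WT were Col14a1, Col19a1, Col26a1, Col27a1, Col4a3, Col5a2, Col6a2, Col7a1 and Col8a1, with highest adjusted p between 0.0566 and 0.206. The 5 in KD were Col19a1, Col24a1, Col4a6, Col5a2 and Col6a2, with highest adjusted p between 0.0553 and 0.142. The rises of Col1a1, Col1a2, Col2a1, Col3a1, Col5a1, Col5a3, Col4a1 and Col4a2 held in all 8 fits in both genotypes. That of Col2a1 is for the probe used, since its other probe ran the opposite way.

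Setting KD normal against WT normal asks what low Keap1 does to collagen mRNA without injury. Of the 34 tested genes 2 were higher (6.34% of all genes) and 4 lower (8.96% of all genes), and 28 did not pass. Col1a1 was lower in KD by 0.77 ± 0.15 on the log2 scale (adjusted p = 0.0194) and Col5a3 by 0.77 ± 0.13 (adjusted p = 0.0151). Col15a1 was lower by 0.58 ± 0.13 (adjusted p = 0.0302), and Col26a1 by 1.81 ± 0.35 (adjusted p = 0.0202). Col1a2 and Col3a1 did not pass, at -0.12 ± 0.084 (adjusted p = 0.385) and -0.38 ± 0.18 (adjusted p = 0.187). The genes that were higher in KD were Col4a3, by 0.62 ± 0.16 (adjusted p = 0.0454, or 0.0552 for its dimmer probe), and Col7a1, by 0.79 ± 0.20 (adjusted p = 0.042). With the slide as a block Col4a1 (0.54, adjusted p = 0.0281) and Col4a2 (0.38, adjusted p = 0.0435) passed too. Of the podocyte markers, Nphs1 was higher (0.46 ± 0.12) and Synpo lower (-2.72 ± 0.44) in KD. Of the loop and distal tubule markers 2 of 5 and of the collecting duct markers 3 of 6 were lower in KD. The summed neutrophil signal was 0.238 and 0.245 times the 75th percentile on the WT normal arrays, and 0.726 and 6.06 on KD normal 1 and KD normal 2. The part of these markers in the collagen differences was not tested. None of the 6 calls held in every fit that left out 1 array. The count was 0 without WT normal 1, 0 without WT normal 2 and 2 without KD normal 2. Quantile normalization and the deposited log2 table each gave 0 higher and 4 lower genes.

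Col7a1 read 0.021 and 0.21 (WT normal), 0.79 and 1.01 (KD normal), 0.62 and 1.08 (WT IRI) and 0.59 and 1.00 (KD IRI), so that WT normal was below the other 3 groups. Its upstream sequence is shown because it holds the letters of the antioxidant response element core, TGACNNNGC, to which NRF2 binds. The stretch is chr9:108953436-108953585 on the forward strand on GRCm38.p6, from RefSeq, 5′ to 3′, with TGACNNNGC and GGGCGG in capitals.
Col7a1: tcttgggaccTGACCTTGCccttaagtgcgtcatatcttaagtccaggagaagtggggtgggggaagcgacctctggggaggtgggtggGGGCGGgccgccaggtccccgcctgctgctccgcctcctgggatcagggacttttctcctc
On both strands and over the 250 bases before the start, TGACNNNGC was found in 6 of 38 collagen windows (15.8%) and in 10.2% of all windows. The other 5 belonged to Col24a1, Col4a2, Col6a2, Col6a5 and Col9a2. Col6a5 was not tested, and the other 4 did not pass between KD and WT without injury. Their differences were -0.028, 0.38, -0.37 and -0.083 in the order Col24a1, Col4a2, Col6a2 and Col9a2. Besides Col7a1, the genes called in that comparison were Col1a1, Col4a3 and Col26a1, which had no window, and Col5a3 and Col15a1. The windows of Col5a3 and Col15a1 lacked TGACNNNGC. Whether NRF2 acts on Col7a1 was not tested.

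The comparison of KD IRI with WT IRI asks what low Keap1 does to collagen mRNA in injured kidney. Of the 34 genes 4 were higher in KD (3.75% of all genes) and 3 lower (3.44% of all genes), and 27 did not pass. The higher genes were Col1a1, by 0.94 ± 0.15 (adjusted p = 0.0201), Col1a2, by 0.50 ± 0.084 (adjusted p = 0.0229), Col5a1, by 0.70 ± 0.14 (adjusted p = 0.0368), and Col14a1, by 0.94 ± 0.16 (adjusted p = 0.0227). Col3a1 was at 0.61 ± 0.18 and did not pass (adjusted p = 0.0851), but passed with the slide as a block (adjusted p = 0.0359). The lower genes were Col27a1, by 1.39 ± 0.25 on the log2 scale (adjusted p = 0.0257), Col4a3, by 0.89 ± 0.16 (adjusted p = 0.0265), and Col4a4, by 0.60 ± 0.13 (adjusted p = 0.0399). The dimmer probes of Col5a1 (0.42, adjusted p = 0.141) and Col27a1 (-1.15, adjusted p = 0.0833) did not pass. None of these calls held in every fit that left out 1 array: the count was 0 without KD IRI 2, WT normal 1 or WT normal 2, 3 without KD IRI 1, and 0 when only the 4 injured arrays were fitted. The deposited log2 table gave 3 higher and 1 lower.

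**Figure D4:**
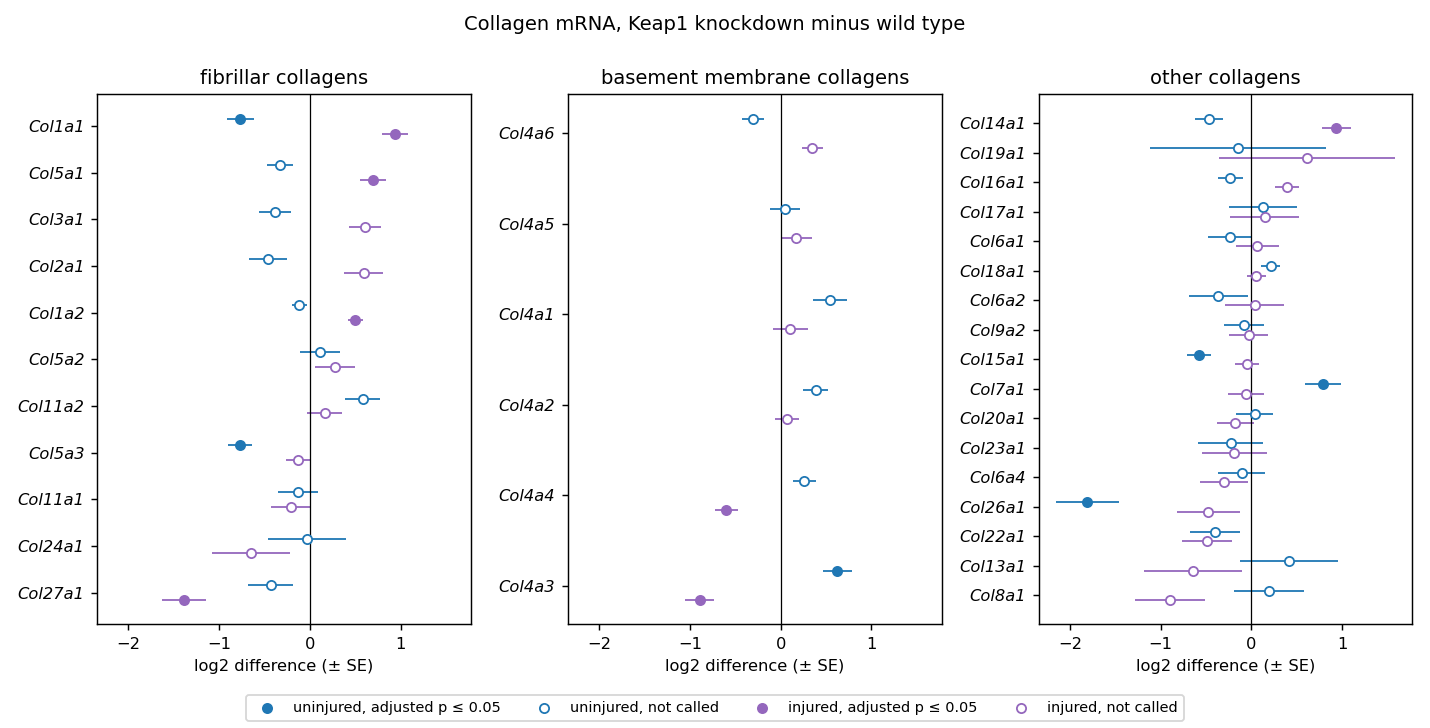
Difference between Keap1 knockdown and wild type for each tested collagen gene (x axis, log2 difference with its SE), by class and gene (y axis), without injury in blue and with injury in purple; filled points passed an adjusted p of 0.05. Col1a1 lies at -0.77 without and 0.94 with injury, and Col4a3 at 0.62 without and -0.89 with injury.

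The interaction (response to IRI in KD less the response in WT) tests whether the genotypes responded differently. It shares its arrays with the comparisons above. Of the 34 genes 4 had a higher response in KD (3.79% of all genes) and 2 a lower one (2.73% of all genes). The response was higher by 1.70 ± 0.21 for Col1a1 (adjusted p = 0.0166), 1.40 ± 0.22 for Col14a1 (adjusted p = 0.024), 1.02 ± 0.20 for Col5a1 (adjusted p = 0.0374) and 0.62 ± 0.12 for Col1a2 (adjusted p = 0.0355). The dimmer Col5a1 probe did not pass (0.38, adjusted p = 0.32). The response was lower by 1.52 ± 0.23 for Col4a3 (adjusted p = 0.0222) and by 0.86 ± 0.18 for Col4a4 (adjusted p = 0.0424). Col3a1 (0.99 ± 0.25, adjusted p = 0.0657) and Col2a1 (1.05 ± 0.30, adjusted p = 0.0849) did not pass. They passed with the slide as a block, as did Col5a3 and Col7a1, for 10 genes in all (adjusted p = 0.0322 for Col3a1). The interaction of Col7a1 (-0.84 ± 0.28, adjusted p = 0.12), Col8a1 (-1.08 ± 0.55, adjusted p = 0.26) and Col26a1 (1.33 ± 0.49, adjusted p = 0.148) did not pass, so the call of Col8a1 and Col26a1 in WT but not in KD is not shown to be a difference between genotypes, and that of Col7a1 is so only with the slide as a block. Col24a1 (-0.62, adjusted p = 0.57) and Col4a6 (0.66, adjusted p = 0.0688), called after injury in KD but not in WT, did not pass the interaction either. With normexp correction 6 responses were higher and 1 lower. The count fell to 0 without KD IRI 2, WT normal 1 or WT normal 2, and to 3 without KD normal 2 or KD IRI 1.

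Genes whose products act on collagen chains were followed next, by the step at which they act. For the lists here and below, 21.3% of all genes tested rose and 24.4% fell in WT, and 28.3% and 30.9% in KD. Between genotypes, 6.34% of all genes were higher in KD and 8.96% lower without injury, and 3.75% and 3.44% with injury. At such shares, 0 calls in a short list do not show that its genes are alike in both genotypes. Of 20 tested genes for chain modification and folding in the endoplasmic reticulum, 10 rose, 5 fell and 5 did not pass in WT, and 8 rose, 6 fell and 6 did not pass in KD (median 0.36 and 0.087, all genes tested -0.065 and -0.061). Fkbp10, a folding enzyme for type I procollagen, rose by 2.35 ± 0.15 in WT and 3.33 ± 0.15 in KD. The collagen chaperone gene Serpinh1 (HSP47) rose by 1.89 ± 0.31 in WT (adjusted p = 0.00286), and P3h4, of the lysine hydroxylation complex, rose by 1.71 ± 0.09 in KD. Colgalt2, a glycosyltransferase, and Tmem38b, a reticulum ion channel, fell in WT (differences of -0.76 and -0.71). Tmem38b and P3h2, a prolyl hydroxylase that acts on type IV collagen, fell in KD (-1.51 and -1.43). The response of Fkbp10 was higher in KD (interaction 0.98 ± 0.21, adjusted p = 0.0455) and that of P3h2 lower (-0.86 ± 0.11, adjusted p = 0.0189). Without injury 4 of these genes were higher in KD and 3 lower, led by the prolyl hydroxylases P4ha1 (1.08 ± 0.22, adjusted p = 0.0249) and P4ha2 (0.80 ± 0.16) and by Colgalt2 (-0.80 ± 0.11) and Fkbp10 (-0.61 ± 0.15). In injured kidney 0 were higher and 2 lower in KD, Colgalt2 (-0.58 ± 0.11) and P3h2 (-0.51 ± 0.081).

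Of 7 procollagen cleavage genes 3 rose and 3 fell in WT, and 4 rose and 2 fell in KD. Pcolce2, an enhancer of C-propeptide removal, rose by 2.37 ± 0.11 and 3.28 ± 0.11, and Adamts2, which removes N-propeptides, by 2.14 ± 0.32 and 2.49 ± 0.32. The largest falls were those of the meprins Mep1b (-6.82 ± 0.53 and -7.49 ± 0.53) and Mep1a (-2.53 ± 0.25 and -3.04 ± 0.25), which are brush-border proteases of the proximal tubule. Pcolce was called lower in WT (-0.31) and higher in KD (0.26), with an interaction of 0.57 ± 0.088 (adjusted p = 0.0228). That of Pcolce2 was 0.91 ± 0.16 (adjusted p = 0.0284). Between genotypes, Pcolce was lower in KD without injury (-0.53 ± 0.062) and Pcolce2 higher in KD with injury (0.61 ± 0.11). All 4 crosslinking genes tested, which encode lysyl oxidases, rose in both genotypes, and 0 of 4 passed between genotypes. Loxl2 rose by 2.04 ± 0.16 in WT and 2.46 ± 0.16 in KD. Loxl4 was not well above background in WT normal and passed on 1 of 2 KD normal arrays, so it entered the test through the injured groups, in which it was high. It was at least 2.93-fold higher in WT IRI. Loxl3 was not well above background in KD normal and was at least 5.37-fold higher in KD IRI.

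The small proteoglycans that coat fibrils were mostly not higher: 1 of 7 rose, 2 fell and 4 did not pass in WT, and 1 rose, 4 fell and 2 did not pass in KD. Bgn rose by 0.91 ± 0.17 in WT and 1.23 ± 0.17 in KD. The largest falls were those of Fmod (-2.82 ± 0.16 in WT and -2.26 ± 0.16 in KD), of Ogn in WT (-1.80 ± 0.11) and of Aspn in KD (-1.60 ± 0.24, with KD IRI well above background on 1 of 2 arrays). Between genotypes Aspn (above background on 1 of 2 WT normal arrays) was higher (0.94 ± 0.24) and Ogn lower (-0.51 ± 0.11) in KD without injury, and Prelp lower with injury (-1.05 ± 0.20). Of 7 collagen receptor genes 5 rose and 0 fell in each genotype, led by the integrin chain Itga11 (1.90 ± 0.31 and 2.17 ± 0.31) and the leukocyte receptor Lair1 (1.25 ± 0.24 and 2.00 ± 0.24), and 0 passed between genotypes. Of 14 laminin and other basement membrane genes 8 rose and 0 fell in WT, and 9 rose and 2 fell in KD. Pxdn, the peroxidase that crosslinks type IV collagen, rose by 1.26 ± 0.18 in WT. In KD the laminin chain Lamb3 rose by 1.92 ± 0.095, with falls of Lama3 (-1.25 ± 0.20) and Lama1 (-0.80 ± 0.29). Lamb3 was higher in KD without injury (0.88 ± 0.095) and with it (1.68 ± 0.095, adjusted p = 0.0013), Lama3 was higher (0.77 ± 0.20) and Nid2 lower (-0.58 ± 0.11) without injury, and Lamb3 alone passed the interaction (0.79 ± 0.13, adjusted p = 0.0276).

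**Figure D5:**
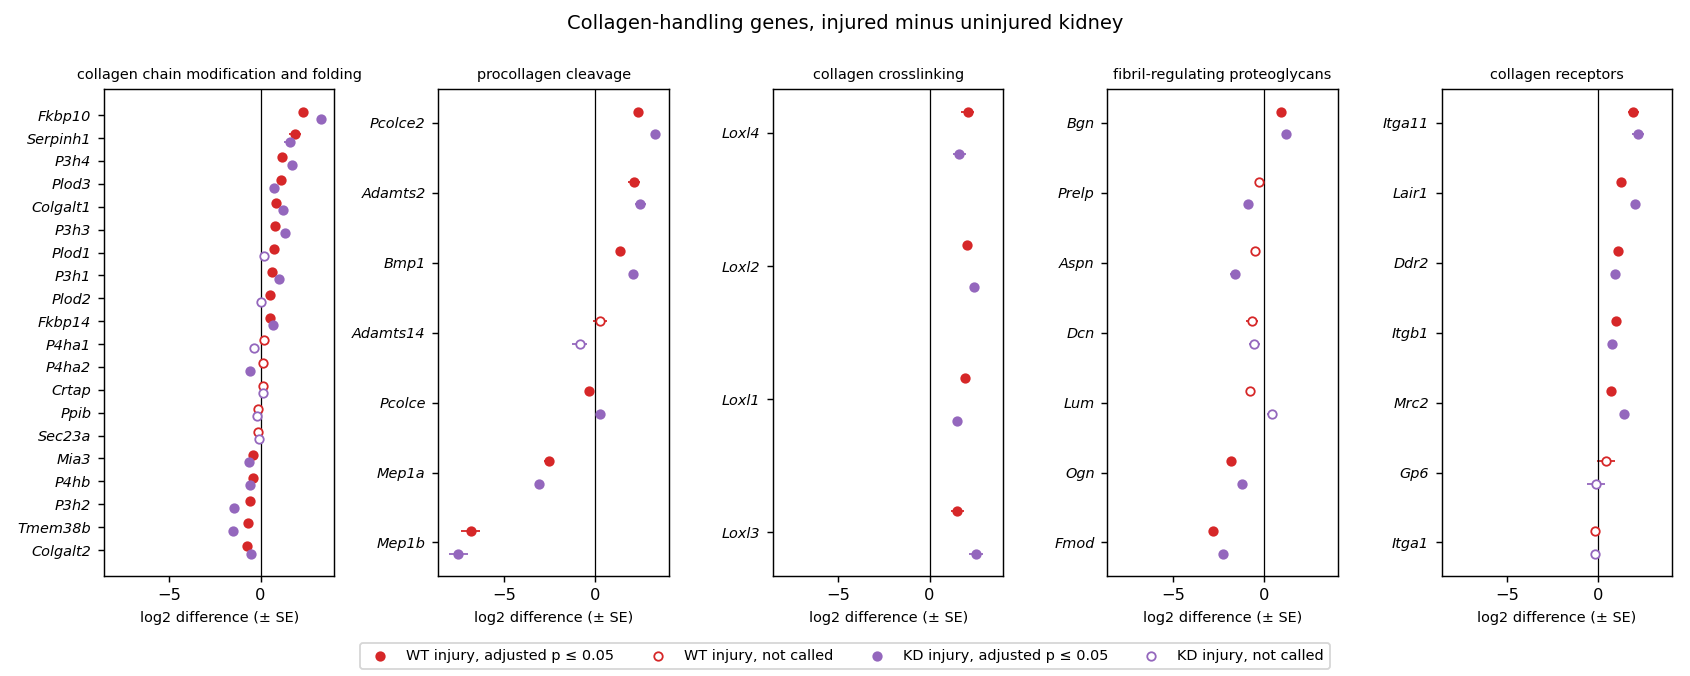
Difference between injured and uninjured kidney (x axis, log2 difference with its SE) for genes acting on collagen, grouped by step, with genes on the y axis, WT in red and KD in purple; filled points passed an adjusted p of 0.05. All 4 crosslinking genes lie to the right of 0 in both genotypes, and the points farthest to the left are Mep1b at -6.82 in WT and -7.49 in KD. Among the crosslinking genes, points of Loxl3 and Loxl4 include values not well above background.

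Markers of the cells that could supply collagen mRNA moved too. Of 10 fibroblast and pericyte markers 5 rose, 1 fell and 4 did not pass in WT, and 6 rose, 0 fell and 4 did not pass in KD. Acta2, the smooth muscle actin, rose by 2.74 ± 0.15 and 1.64 ± 0.15, fibronectin (Fn1) by 2.03 ± 0.23 and 2.38 ± 0.23 and Pdgfrb, a pericyte receptor, read 1.70 and 1.82 (WT normal), 1.94 and 1.90 (KD normal), 3.57 and 3.76 (WT IRI) and 3.61 and 3.90 (KD IRI) and rose by 1.90 ± 0.12 and 1.83 ± 0.12. Tagln fell by 0.84 ± 0.22 in WT. The summed linear signal of the list was 78.5 to 101 times the array's 75th percentile in WT normal, 47.1 to 49.4 in KD normal, 79.1 to 89.0 in WT IRI and 66.9 to 81.7 in KD IRI, with overlap between WT normal and WT IRI. Without Tagln, left out after its values were seen, it was 18.7 to 19.3 in WT normal, 20.3 to 27.4 in KD normal, 41.9 to 48.3 in WT IRI and 40.4 to 49.96 in KD IRI, higher on all injured arrays. Its members Dcn and Lum are also in the proteoglycan list. In KD IRI against WT IRI, Thy1 (1.38 ± 0.22, adjusted p = 0.0205) and Fn1 (1.08 ± 0.23, adjusted p = 0.0419) were higher, and the interaction passed for Thy1 (1.73 ± 0.31, adjusted p = 0.0297) and, in the other direction, Acta2 (-1.10 ± 0.21, adjusted p = 0.0355). Without injury Acta2 was higher (0.69 ± 0.15) and Tagln lower (-1.54 ± 0.22) in KD. All 4 tested neutrophil markers rose in both genotypes (Ngp and Camp were too dim to be tested), and 4 of 5 macrophage markers rose in both genotypes. Of these, Csf3r was not well above background on any uninjured array, and Cxcr2 and the macrophage marker Itgam passed on 1 KD normal array each. Csf3r, Cxcr2 and Itgam therefore entered the test through the injured groups, in which they were high. S100a8 was not well above background in WT normal. Of 7 endothelial markers 2 rose and 1 fell in WT, and 3 rose and 1 fell in KD. The part of cell makeup in the collagen differences was not tested.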

How the data were processed

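Total RNA from left kidney (300 ng per array) had been labelled with Cy3 and hybridised to 8 Agilent arrays, per the labels' protocols. The deposited scanner files hold processed spot intensity from Feature Extraction 10.7.3.1, per the file headers. The log2 table deposited by the authors equals the values used here after centring each probe on its median (r at least 0.9999997 per array). How the authors centred it is not given in the sources used here.

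Intensity was taken as log2 and centred on the 75th percentile of each array. Probes were required to be unmarked on all 8 arrays and well above background on both of some group; these were kept (27409 of 41174), the brightest probe stood for a gene, and 20581 genes were fitted together with limma 3.58.1 in R 4.3.3 (4 group means, intensity trend). A bound on a fold sets each dim array at its lowest signal well above background or at the probe's own signal, whichever is higher. Array numbers equal slides, each with 1 array of every group. Deviations of same-numbered arrays correlated at 0.0216 to 0.262, so the numbers were not taken as pairs.

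Collagen genes called in a comparison with a log2 change of at least 1 there are given array by array, and from each other list up to 2 rises and 2 falls, 1 gene of which is not reported here. The members and lists were chosen with earlier results of these data known. Scripts were tested on simulated data. Alternatives were 12 other settings and 8 fits that left out 1 array.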

Additional observations from a re-analysis of the deposited data

Results flagged for a closer look

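The injury response differed between KD and WT for 6 collagen genes by the interaction test in limma (adjusted p at most 0.05). It was more positive in KD for Col1a1 (1.70 ± 0.21), Col14a1 (1.40 ± 0.22), Col5a1 (1.02 ± 0.20) and Col1a2 (0.62 ± 0.12), and more negative for Col4a3 (-1.52 ± 0.23) and Col4a4 (-0.86 ± 0.18), as log2 differences with SE. Each lost its call in at least 1 fit that left out an array, with highest adjusted p between 0.0789 and 0.150.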

How the results depend on the processing

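The counts of collagen genes called after injury (26 in WT, 25 in KD) stayed within 1.5 times under all alternatives, and leaving out 1 array gave 18 to 27 in WT and 21 to 25 in KD. The smaller counts did not. For KD IRI against WT IRI the count of 7 became 4 with the deposited log2 table, 3 with no filter on dim probes, 4 without the intensity trend, 0 with only the 4 arrays compared, 1 at a minimum of 2-fold and 0 to 6 when 1 array was left out. For KD normal against WT normal the count of 6 became 2 with no filter, 1 at a minimum of 2-fold and 0 to 8 when 1 array was left out. For the interaction the count of 6 became 3 with the deposited table, 2 with no filter, 3 without the trend and 0 to 6 when 1 array was left out. With the replicate block, which is also the slide block, it became 10, and the other counts were 26, 25, 8 and 8. The numbers share a slide but the arrays are not shown to be pairs. Allowing marked spots on some arrays, an alternative chosen after seeing the data, changed no collagen count. The deposited table holds the same values centred by probe, so it and the fit without the trend are not separate checks.

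Among class medians, quantile normalization gave 2.56 (fibrillar, WT injury), 3.23 (fibrillar, KD injury), 0.18 (type IV, KD injury) and 0.25 (type IV, KD normal against WT normal). Normexp gave 2.12 (fibrillar), 0.22 (type IV) and 0.59 (other) for WT injury, and 2.54 (fibrillar) and -0.13 (type IV) for KD injury. It gave -0.064 (fibrillar) and 0.095 (other) for KD normal against WT normal, and -0.20 (type IV) and -0.38 (other) for KD IRI against WT IRI. The mean of all kept probes gave fibrillar medians of 1.80 in WT, 2.5 in KD and -0.14 for KD normal against WT normal. Leaving out 1 array gave 0.18 to 0.34 (type IV) and 0.061 to 0.77 (other) for KD injury, 0.50 to 0.79 (other) for WT injury and 0.22 to 0.45 (type IV) for KD normal against WT normal. For KD IRI against WT IRI it gave 0.045 to 0.55 (fibrillar), -0.14 to 0.24 (type IV) and -0.17 to 0.075 (other). Under normexp Col22a1 reversed in WT injury (0.47) and Col17a1 in KD injury (-0.078), and the cause was not tested. Both were not well above background in one of the groups compared, so their folds are bounds.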

Other observations

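Of the collagen genes that were not tested, Col10a1 and Col6a5 had a high value on an array by itself. Col10a1, a collagen of growth cartilage, read -7.27 and -6.89 (WT normal), -3.06 and -7.72 (KD normal), -8.04 and -6.61 (WT IRI) and -8.01 and -7.64 (KD IRI) and was well above background on KD normal 1 only. Col6a5, a type VI chain, read -3.01 and -5.46 (WT normal), -7.59 and -6.80 (KD normal), -8.08 and -7.54 (WT IRI) and -8.04 and -6.61 (KD IRI) and was well above background on WT normal 1 only.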
